A study of Mus musculus with 22 samples.

Results

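Complement genes were followed in fibroblasts sorted from mouse skin during stretch-mediated expansion. The set is 9 genes, taken by symbol from the 55414 genes of the count table: C1ra and C1s1, the proteases of the first complement complex; C4b and C2, which form the classical C3 convertase; C3, the central component; Cfb, which forms the alternative convertase; and the inhibitors Serping1, Cd55 and Cd59a. All 9 passed the low-count filter and were tested. Every mouse had surgery. Mice of the EXP arm received an expander hydrogel under the skin near the neck, held with stitches, and mice of the CTRL arm were operated on without an expander. Skin was collected on day 1 (4 CTRL and 5 EXP libraries), day 2 (3 of each) and day 4 (4 CTRL and 3 EXP), which makes 6 groups and 22 libraries. Strain, sex, age and the number of animals behind a library are not given in the labels used here. Nothing in the labels says that libraries of a group came from separate mice, so p-values measure the spread between these libraries, which may be technical.

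The cells were live cells positive for CD34 and PDGFRα and negative for CD31, CD45, CD117 and EpCAM, which describes a fibroblast gate and limits the results to cells that carry CD34. All 8 fibroblast markers of a fixed list (Pdgfra, Cd34, Col1a1, Col1a2, Col3a1, Dcn, Lum and Pdgfrb) were present, with a summed level of 68700 to 409000 CPM (counts rescaled so that libraries have equal totals). That sum was lower in EXP than in CTRL libraries without overlap on day 1 (94100 to 171000 against 211000 to 284000) and on day 2 (68700 to 171000 against 329000 to 409000). Macrophage markers, 10 genes, summed to 63.3 to 183 CPM, and 4 of them, Ptprc and Adgre1 included, were under 1 CPM in every library. Csf1r (14.4 to 158 CPM), Cd14 (11.6 to 87.0 CPM) and Cd68 (1.425 to 24.9 CPM) made up most of that sum. Neutrophil markers, 8 genes, summed to 0 to 5.19 CPM, and Cxcr2 was at 0 throughout. Library totals ran from 21461294 to 30210204 counts. A group of 192 genes was picked in these same libraries by a correlation above 0.9 with Rnf10, group means removed. In 7 libraries (3 of day 1 CTRL, 2 of day 1 EXP and 2 of day 4 CTRL) this Rnf10 group stood above the level in the other 15. Its mean log2 CPM was at least 4.83 there against at most 4.13. The cut between the high and low sides was put at the widest gap of that mean, so a gap was certain to be found. Several results are given for 1 side of this split as well.

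Complement is a cascade of serum proteins. The classical pathway starts when C1q binds a target and the proteases C1r and C1s are activated. C1s then cuts C4 and C2, and the resulting convertase cuts C3. In the alternative pathway, factor B bound to C3b is cut by factor D and forms a convertase that amplifies C3 cleavage. Host cells are guarded by inhibitors: C1 inhibitor (Serping1) blocks C1r and C1s, decay-accelerating factor (Cd55) takes convertases apart, and Cd59 stops assembly of the membrane pore. The liver makes most circulating complement, while fibroblasts are a known local source of several components.

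The RefSeq promoter table held 5 of the 9 members (C3, C1s1, C1ra, Cd55 and Cd59a). The 250 bases before the start site are printed for C3, the hub of the cascade, for C1s1, which rose on day 4, and for Cd55, which fell on days 1 and 2. They are written 5′ to 3′ on the strand of the gene (minus for all 3), from RefSeq on build GRCm38.p6, and capitals mark matches to the motifs searched.

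C3, chr17:57228137-57228386: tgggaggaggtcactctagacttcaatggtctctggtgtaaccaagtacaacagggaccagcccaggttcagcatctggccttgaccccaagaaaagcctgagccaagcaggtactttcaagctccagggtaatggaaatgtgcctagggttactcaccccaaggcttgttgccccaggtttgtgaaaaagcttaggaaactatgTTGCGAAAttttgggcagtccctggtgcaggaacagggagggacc

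C1s1, first of its 2 start sites, chr6:124542360-124542609: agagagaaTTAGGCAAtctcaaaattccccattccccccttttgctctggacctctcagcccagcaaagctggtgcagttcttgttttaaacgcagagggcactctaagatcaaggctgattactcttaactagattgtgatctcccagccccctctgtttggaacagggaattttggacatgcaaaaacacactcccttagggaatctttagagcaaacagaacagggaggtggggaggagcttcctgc

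Cd55, chr1:130462745-130462994: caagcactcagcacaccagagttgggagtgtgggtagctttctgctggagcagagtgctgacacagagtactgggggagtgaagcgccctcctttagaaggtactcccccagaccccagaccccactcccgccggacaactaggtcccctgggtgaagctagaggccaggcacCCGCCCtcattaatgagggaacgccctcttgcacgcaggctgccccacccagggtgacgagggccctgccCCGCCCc

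A total of 8 motifs were searched on both strands: C/EBP-type (TTGCNNAA), STAT (TTCNNNGAA), IRF, NF-kB, AP-1 (TGANTCA), the SRF CArG box, the GC box (GGGCGG) and the TATA box (TATAAA). The C3 window held 1 C/EBP-type match, TTGCGAAA, 45 to 38 bases before the start. The C1s1 window held 1 on the other strand, TTAGGCAA, 242 to 235 bases before the start. The window of the second C1s1 start site, not printed, held no match to any of the motifs. Of 32851 mouse promoter windows of the same length, 9.6% hold a C/EBP-type match. The Cd55 window held GC-box matches on the other strand (CCGCCC) 77 to 72 and 7 to 2 bases before the start, and 32.7% of all windows hold a GC box. None of the printed matches overlap, and a match of letters is not a site of binding.

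Among fibroblast transcripts the 9 genes covered a wide range of levels. Per kilobase of exon, and averaged over all libraries, Serping1 was at 1136 CPM, C4b at 403, C3 at 115, C1ra at 109 and C1s1 at 107. The levels per kilobase of the other 4 were far lower: 19.2 CPM for Cd55, 14.4 for Cd59a, 10.7 for C2 and 10.1 for Cfb. Ranges over libraries overlapped between all neighbours in this order except C1s1 (39.2 per kilobase at the lowest) and Cd55 (37.6 at the highest). RNA was measured in bulk, so fewer cells that express a gene cannot be told apart from less RNA per cell.

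On each day 2 of the 9 genes changed between EXP and CTRL, and they were not the same 2. On day 1 Cd55 and C2 fell. On day 2 Cfb rose and Cd55 fell. On day 4 Cfb and C1s1 rose. Called here means an adjusted p under 0.05 over all 17554 genes tested (edgeR's quasi-likelihood test, Benjamini-Hochberg). Over all genes 28.6% were called on day 1, 13.4% on day 2 and 22.5% on day 4, so 2 of 9 is near the background on each day. The median log2 fold change of the 9 genes was -0.038 on day 1, 0.412 on day 2 and 0.792 on day 4, beside 0.017, 0.021 and 0.031 over all genes.

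**Figure D1:**
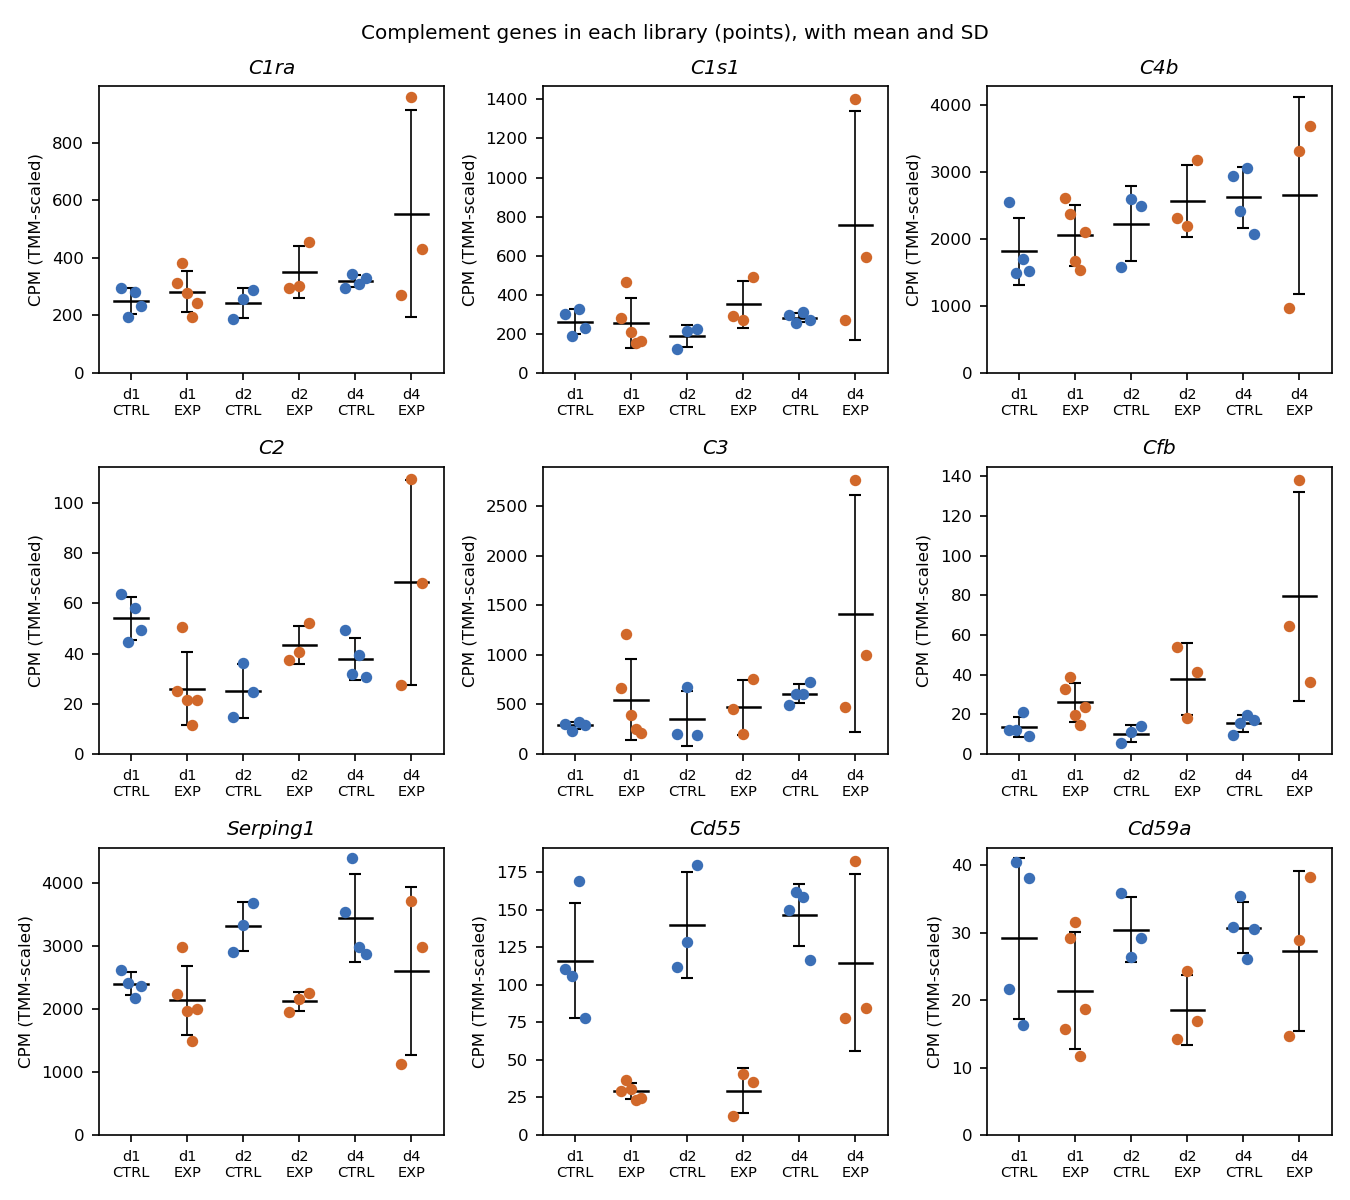
Level of each of the 9 complement genes in every library, in CPM on TMM-scaled totals (vertical axis, linear, starting at 0), by day and arm (d1, d2, d4; CTRL blue, EXP orange). Points are libraries, and bars give the mean and SD. Cd55 sits between 12.4 and 40.4 CPM in the 8 EXP libraries of days 1 and 2 and above 78 CPM in every CTRL library, and 1 EXP library of day 4 (replicate 2) is the highest of all 22 for C1ra, C1s1, C2, C3, Cfb and Cd55.

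Of the proteases of the first complex, C1s1 rose on day 4 and C1ra was not called against CTRL on any day. C1s1 (ENSMUSG00000038521, chromosome 6) encodes the protease that cuts C4 and C2. On day 1 it was at 303, 189, 328 and 232 CPM in the CTRL libraries and at 284, 467, 212, 152 and 165 CPM in the EXP libraries. The arms overlapped, with a log2 fold change of -0.04 ± 0.37 (SE; edgeR adjusted p = 0.952), whose sign changed with the scaling: on library totals it was 0.10. On day 2 C1s1 was at 123, 215 and 224 CPM in CTRL and at 292, 271 and 491 CPM in EXP. All 3 EXP libraries lay above all 3 CTRL libraries, but the difference of 0.91 ± 0.46 on the log2 scale did not pass (adjusted p = 0.203). On day 4 C1s1 was at 298, 255, 310 and 272 CPM in CTRL and at 269, 1404 and 593 CPM in EXP. It rose 2.66-fold (log2 1.41 ± 0.42, adjusted p = 0.0227). EXP replicate 1 was within the CTRL range. The rise rested on EXP replicate 2, without which it was 0.58 (adjusted p = 0.337), and the call was also lost without CTRL replicate 4 (1.39, adjusted p = 0.0514). Among the alternatives without a replicate block, it was lost as well with no low-count filter (1.44, adjusted p = 0.0583), with only the day 4 libraries (1.40, adjusted p = 0.0917) and among the libraries with low levels of the Rnf10 group (1.45, adjusted p = 0.113).

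C1ra (ENSMUSG00000055172), beside C1s1 on chromosome 6, encodes the protease that activates C1s. In CTRL libraries its group means were 250 ± 46 (SD, n = 4), 244 ± 53 (n = 3) and 320 ± 21 CPM (n = 4) on days 1, 2 and 4. In EXP libraries they were 282 ± 71 (n = 5), 351 ± 90 (n = 3) and 553 ± 360 CPM (n = 3). The day 2 arms did not overlap, with CTRL libraries at 187, 256 and 290 CPM and EXP libraries at 297, 301 and 455 CPM. No day passed the test: log2 fold changes were 0.17 ± 0.27, 0.52 ± 0.33 and 0.79 ± 0.30, with adjusted p of 0.674, 0.312 and 0.0634. On day 4 the EXP libraries were at 271, 958 and 430 CPM, in the same order as for C1s1. Leaving out EXP replicate 1 gave a call for C1ra on day 4 (1.12, adjusted p = 0.0171), and so did leaving out EXP replicate 3 (0.97, adjusted p = 0.0366).

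C1ra and C1s1 tracked each other library by library. Pearson's r of log2 CPM was 0.952 and Spearman's rho 0.834 over the 22 libraries, given as a description since libraries share days and arms. With group means removed r was 0.954, and without the 2 libraries farthest from the median of C1s1 it was 0.884. Among the 36 pairs of the 9 genes r ran from -0.376 to 0.952 with a median of 0.396, and C1s1 with C1ra was the highest. With group means removed the lowest of the 36 was -0.265 and the median 0.612. C1s1 also tracked C3 (r = 0.838, 0.695 without the 2 farthest libraries on C3) and C2 (r = 0.819, 0.749 without the 2 farthest on C2). With Cd59a, r was 0.063.

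**Figure D2:**
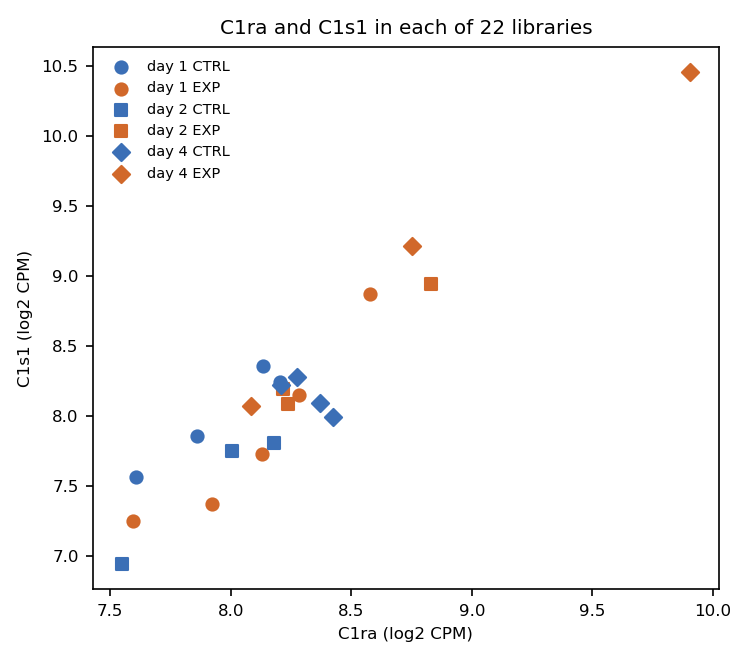
C1s1 against C1ra, both as log2 CPM, in each of the 22 libraries (blue CTRL, orange EXP; circles day 1, squares day 2, diamonds day 4). The points follow 1 line from day 2 CTRL replicate 1 at the lower left to day 4 EXP replicate 2 at the upper right, with r = 0.952.

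Reads of the C1 proteases are shared with close copies. C1rb carried 41.3 to 50.9% as many counts as C1ra in each library, and 26.3% of the 150-base stretches of C1ra transcripts occur also in C1rb. C1s2 carried 15.9 to 20.8% as many counts as C1s1, with 2.9% of stretches shared. C1s2 was itself called on day 4 (log2 1.52, adjusted p = 0.0206), and without EXP replicate 2 its value was 0.60 (adjusted p = 0.332). With no filter, with only the day 4 libraries and on the low side of the Rnf10 group its adjusted p was 0.0522, 0.0860 and 0.114. How the authors' counting split such reads is not given in the sources used here, so the levels of C1ra and C1rb in particular are uncertain. In M21 gene models, 18.4% of the exon bases of C1s1 also lie in a gene on the opposite strand, and whether counting used strand is not given.

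C4b and C2 supply the classical convertase. C4b was not called on any day, and C2 fell on day 1. C4b (ENSMUSG00000073418, chromosome 17), which encodes C4, was the second most abundant of the 9. Its EXP and CTRL libraries overlapped on every day. Group means were 1820 ± 504 CPM in CTRL and 2060 ± 458 in EXP on day 1, 2228 ± 561 and 2567 ± 540 on day 2, and 2628 ± 457 and 2659 ± 1473 on day 4 (SD, n as above). Log2 fold changes were 0.18, 0.20 and 0.02, with adjusted p of 0.681, 0.756 and 0.977. The interval of the day 4 difference ran from -0.68 to 0.71, so a change of up to about that size could not be seen. The lowest and the highest of the 22 libraries were both day 4 EXP libraries, at 972 and 3690 CPM. C4a, a close copy, carried 7.3 to 9.4% as many counts, and 8.3% of the 150-base stretches of C4b occur also in C4a.

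C2 (ENSMUSG00000024371, chromosome 17) encodes the protease of the classical convertase. It fell on day 1: CTRL libraries were at 63.8, 44.8, 58.4 and 49.5 CPM, and EXP libraries at 25.2, 50.5, 21.3, 11.6 and 21.6 CPM. EXP replicate 2 lay within the CTRL range and the other 4 below it. The fall was 2.08-fold (log2 -1.06 ± 0.36, adjusted p = 0.0346). It was not called when any of 6 of the 9 day 1 libraries was left out, with adjusted p of 0.0654 to 0.0852 in those 6 cases. These were CTRL replicates 1 and 3 and EXP replicates 1, 3, 4 and 5. In the 5 day 1 libraries with high levels of the Rnf10 group the C2 difference was -0.56 (adjusted p = 0.258). With that group as a covariate it was -0.97 (adjusted p = 0.0501), and with no low-count filter -1.08 (adjusted p = 0.0824). On day 2 CTRL libraries were at 14.6, 36.2 and 24.7 CPM and EXP libraries at 37.5, 40.8 and 52.1 CPM, without overlap and above CTRL, but not called (0.79 ± 0.45, adjusted p = 0.261). On day 4 CTRL libraries were at 49.3, 31.9, 39.5 and 30.8 CPM and EXP libraries at 27.7, 109 and 68.1 CPM (0.85 ± 0.41, adjusted p = 0.140). The EXP effect on C2 differed between days (joint test over the 3 days, adjusted p = 0.0398), below CTRL on day 1 and above it later. Over all genes, 8.82% passed that joint test. Leaving out 1 library kept the joint call of C2 in 5 of 22 cases (day 1 EXP replicate 2, day 2 CTRL replicate 2, day 4 CTRL replicate 1 and day 4 EXP replicates 1 and 3), and in the others the adjusted p was 0.0501 to 0.0775.

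C3 (ENSMUSG00000024164, chromosome 17), on which all pathways converge, was not called on any day, and its spread within groups was wide. Day 1 CTRL libraries were at 304, 236, 327 and 289 CPM and EXP libraries at 664, 1208, 393, 251 and 216 CPM. EXP replicates 1 to 3 lay above and replicates 4 and 5 within or below the CTRL range. The difference was 0.92 ± 0.54 on the log2 scale (adjusted p = 0.219). Replicates 1 and 2 are the 2 EXP libraries with high levels of the Rnf10 group, and among the 5 libraries of that kind C3 was called on day 1 (1.69, adjusted p = 0.00567). Day 2 CTRL libraries were at 202, 676 and 188 CPM and EXP libraries at 459, 203 and 756 CPM, with overlap (0.41 ± 0.65, adjusted p = 0.729). The day 2 value changed sign without EXP replicate 3 (-0.12). Day 4 CTRL libraries were at 498, 602, 607 and 726 CPM and EXP libraries at 478, 2763 and 1003 CPM. That difference was 1.22 ± 0.60 (adjusted p = 0.153), and 0.27 without EXP replicate 2.

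Cfb (ENSMUSG00000090231, chromosome 17) was the member with a lasting rise. It encodes factor B, the protease of the alternative convertase. On day 1 it was at 12.1, 12.2, 20.96 and 9.27 CPM in CTRL and at 32.6, 38.9, 19.9, 14.6 and 23.8 CPM in EXP. All 5 EXP values were above 3 of the 4 CTRL values, and the difference did not pass (0.93 ± 0.40, adjusted p = 0.0876). It did within the 5 libraries with high levels of the Rnf10 group (1.24, adjusted p = 0.0196), with that group as a covariate (1.15, adjusted p = 0.0263), with only the day 1 libraries (0.93, adjusted p = 0.0348) and without CTRL replicate 3 (1.22, adjusted p = 0.0495). On day 2 Cfb was at 5.72, 11.1 and 14.1 CPM in CTRL and at 54.0, 18.3 and 41.5 CPM in EXP, without overlap. It rose 3.69-fold (1.88 ± 0.49, adjusted p = 0.0160). Leaving out 1 library ended that call in 3 of 6 cases (CTRL replicates 1 and 2 and EXP replicate 1, adjusted p of 0.0802, 0.0558 and 0.0917). On day 4 it was at 9.48, 15.9, 19.6 and 17.0 CPM in CTRL and at 64.4, 138 and 36.2 CPM in EXP. Again the arms did not overlap, and the rise was 5.13-fold (2.36 ± 0.45, adjusted p = 0.00190). This call held in all 17 alternatives run, with log2 fold changes of 1.67 (without EXP replicate 2) to 2.74. On day 4, among libraries on the low side of the Rnf10 group, Cfb was at 2.65 (adjusted p = 0.0287). All day 2 libraries are on that side, so the day 2 value of Cfb there (1.88, adjusted p = 0.0334) rests on the same libraries as above. The joint test found no difference of the Cfb effect between days (adjusted p = 0.232), so its growth from day 1 to day 4 was not distinct from the spread.

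Cfb and C2 are neighbours, and an annotated readthrough gene spans both. Of the 150-base stretches of their transcripts, 80.7% for Cfb and 48.3% for C2 occur also in that gene, Gm20547, which had 0 counts in every library. How the authors' counting treated reads shared with it is not given in the sources used here, so the levels of Cfb and C2 are uncertain.

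Summed markers of several other cell types also differed between the arms on days 2 and 4. On day 2 the summed levels were higher in EXP without overlap for endothelial markers (2.08 to 7.39 against 0.498 to 0.783 CPM), lymphocyte markers (4.92 to 6.83 against 2.54 to 4.59 CPM), Schwann cell and melanocyte markers (15.3 to 37.2 against 5.7 to 13.5 CPM, mostly Mlana) and neutrophil markers (0.747 to 5.19 against 0.0898 to 0.547 CPM). On day 4 adipocyte markers, 8 genes, summed to 56.4 to 397 CPM in the day 4 EXP libraries and to 23.1 to 41.0 CPM in the day 4 CTRL libraries. Endothelial markers, 7 genes, summed to 23.9 to 56.2 CPM against 4.15 to 11, and lymphocyte markers, 6 genes of which 4 (Ms4a1, at 0, among them) never passed 3 counts, to 13.3 to 29.9 CPM against 0.335 to 7.31. A single gene carried most of the endothelial and lymphocyte sums: Tek reached 44.8 CPM while Cdh5 never passed 0.59 CPM, and Cd3e reached 28.9 CPM while Cd3g and Trac never passed 3 counts. Neutrophil markers on day 4 summed to 0.937 to 3.06 CPM in EXP against 0.168 to 0.346 CPM in CTRL. Of that list only S100a8 passed 1 CPM in any of the 22 libraries, reaching 4.74 CPM. Macrophage markers on day 4 summed to 76.1 to 181 CPM in EXP against 124 to 160 in CTRL and overlapped. The part of these markers in the rises of Cfb and C1s1 was not tested. C1s1 and Cfb reached 1404 and 138 CPM in day 4 EXP replicate 2. Of the markers, Tek peaked in that library too, at 44.8 CPM. Adipoq was highest in day 4 EXP replicate 3 (52.9 CPM) and Cd3e in day 4 EXP replicate 1 (28.9 CPM).

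Of the 3 inhibitors, Cd55 fell early and Serping1 and Cd59a were not called. Cd55 (ENSMUSG00000026399, chromosome 1), a membrane-anchored inhibitor that takes C3 convertases apart, gave the clearest difference of all 9. On day 1 it was at 111, 106, 169 and 78.1 CPM in CTRL and at 29.6, 36.8, 30.7, 23.6 and 24.9 CPM in EXP. The lowest CTRL library was more than 2 times the highest EXP library. Cd55 fell 3.99-fold (log2 -1.99 ± 0.30, adjusted p = 9.24e-05). On day 2 CTRL libraries were at 112, 129 and 180 CPM and EXP libraries at 12.4, 40.4 and 35.6 CPM, again apart, a 4.76-fold fall (-2.25 ± 0.38, adjusted p = 8.82e-04). On day 4 CTRL libraries were at 150, 162, 158 and 117 CPM and EXP libraries at 77.7, 183 and 84.3 CPM. Here EXP replicate 2 was above all CTRL libraries and the other 2 below them, and Cd55 did not differ by the test (-0.35 ± 0.34, adjusted p = 0.486, interval -1.08 to 0.37).

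The Cd55 effect differed between days (joint adjusted p = 0.0264). That call was lost without day 4 CTRL replicate 4 (adjusted p = 0.0586), without day 4 EXP replicate 2 (0.133) and with no low-count filter (0.0529). Within the EXP arm Cd55 was 3.95-fold higher on day 4 than on day 1 (1.98 ± 0.32, adjusted p = 2.95e-04) and 3.90-fold higher than on day 2 (1.96 ± 0.38, adjusted p = 0.0284). Of all genes, 0.387% passed that last comparison. Cd55 did not pass it without any of the day 2 EXP replicates 1, 2 and 3 (adjusted p = 0.179, 0.0721 and 0.0728), without day 4 EXP replicate 2 (1.44, adjusted p = 0.261), with only the EXP libraries (adjusted p = 0.215) or on the low side of the Rnf10 group (adjusted p = 0.0717). Within CTRL its level did not move by the test (adjusted p = 0.797 over the 3 days). The Cd55 falls of days 1 and 2 were called in every alternative run for them (19 and 16), with log2 fold changes of -2.14 to -1.76 and -2.55 to -1.82. Within the high side of the Rnf10 group the day 1 value was -1.96 (adjusted p = 0.00356). All day 2 libraries (3 CTRL and 3 EXP) are on the low side. The day 2 value there (-2.25, adjusted p = 0.00535) is thus no separate check. Cd55b, a copy with 1.8 to 4.5% as many counts, fell as well (-2.35 on day 1, adjusted p = 3.85e-05, and -2.22 on day 2, adjusted p = 0.00134). Shared stretches made up 2.2% of the Cd55 transcript.

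The transcripts of the sort markers moved on the same days, and not in 1 direction. Cd34, whose protein the sort required, was at 1274 to 1545 CPM in day 1 CTRL and 262 to 778 CPM in day 1 EXP. On day 2 it was at 1677 to 2087 CPM in CTRL and 216 to 665 CPM in EXP, and on day 4 at 1383 to 2346 and 441 to 1552 CPM. Pdgfra, the other gene of the gate, was higher in EXP without overlap on day 1 (465 to 702 CPM against 320 to 413 in CTRL) and day 2 (464 to 1022 against 227 to 258 CPM). The summed fibroblast list, lower in EXP as given above, is made up mostly of the collagen genes Col1a1, Col1a2 and Col3a1. Pericyte and smooth muscle markers, 7 genes, were lower in EXP without overlap on day 1 (13.5 to 41.8 against 42.5 to 83.9 CPM) and day 2 (23.1 to 45.3 against 76.9 to 91.2 CPM). Among them Rgs5 never passed 4.55 CPM, while Kcnj8 and Abcc9 reached 46.7 and 50.6 CPM. The part of these shifts in the fall of Cd55 was not tested.

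Serping1 (ENSMUSG00000023224, chromosome 2), the inhibitor of C1r and C1s, was the most abundant of the 9 and was not called on any day. On day 2 it was at 2905, 3335 and 3686 CPM in CTRL and at 1947, 2149 and 2257 CPM in EXP. All EXP libraries lay below all CTRL libraries, with a difference of -0.64 ± 0.30 (adjusted p = 0.167). In a fit of the day 2 libraries alone it was called (-0.65, adjusted p = 0.0274), as with limma voom and quality weights (-0.59, adjusted p = 0.0404). On day 1 the arms overlapped (2396 ± 181 CPM in CTRL and 2133 ± 548 in EXP, -0.17, adjusted p = 0.647), and so they did on day 4 (3442 ± 694 and 2607 ± 1332, -0.40, adjusted p = 0.322). On library totals the day 1 value was 0.00.

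Cd59a (ENSMUSG00000032679, chromosome 2), which blocks the membrane pore, followed the same order on day 2 without a call. CTRL libraries were at 35.9, 26.4 and 29.2 CPM and EXP libraries at 14.3, 24.4 and 17.0 CPM, so the arms did not overlap (-0.72 ± 0.38, adjusted p = 0.225). On day 1 CTRL libraries ran from 16.4 to 40.5 CPM and EXP libraries from 11.7 to 31.6 CPM (-0.45, adjusted p = 0.296). On day 4 the ranges were 26.1 to 35.5 and 14.7 to 38.2 CPM (-0.17, adjusted p = 0.760). That last value changed sign on library totals (0.08). Its copy Cd59b, with 3.5 to 15.3% as many counts, fell on day 1 (-1.28, adjusted p = 0.0150) and on day 2 (-1.44, adjusted p = 0.0457). The day 2 call of Cd59b was lost whenever CTRL replicate 2 or 3 or any EXP replicate was left out (adjusted p of 0.0578 to 0.200). That call was also lost in 4 of 9 other alternatives (adjusted p of up to 0.115). No low-count filter and the low side of the Rnf10 group were among them.

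**Figure D3:**
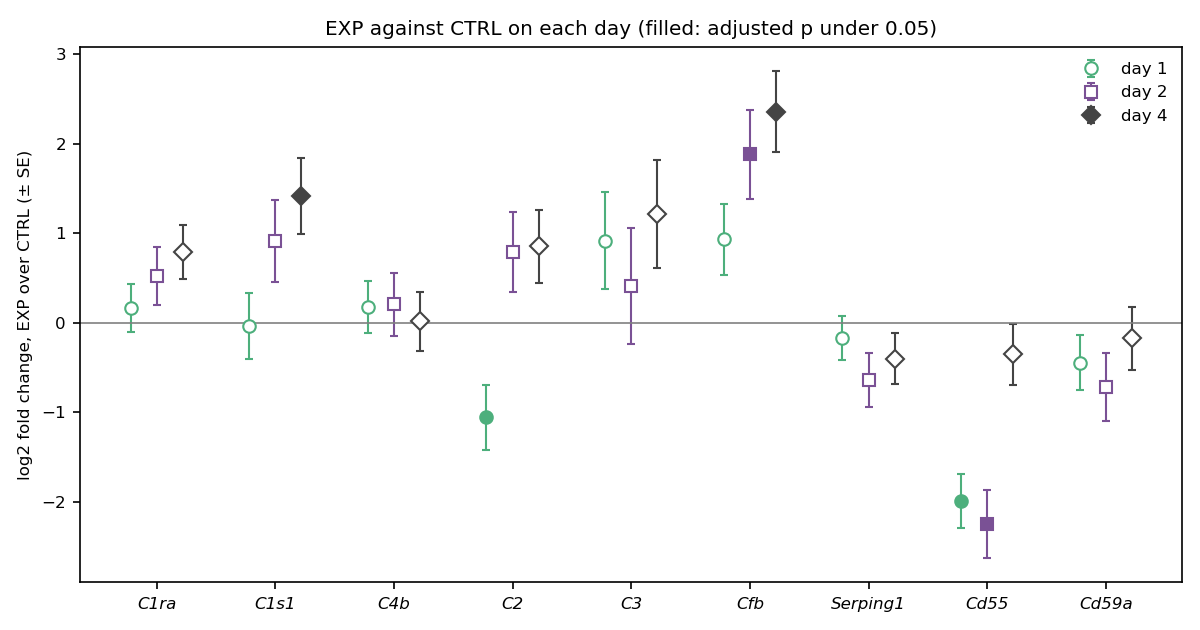
Log2 fold change of EXP over CTRL with its SE (vertical axis) for each of the 9 genes (horizontal axis) on day 1 (circles), day 2 (squares) and day 4 (diamonds); filled symbols have an adjusted p under 0.05. Cd55 is near -2 on days 1 and 2 and at -0.35 on day 4, Cfb is at 0.93, 1.88 and 2.36, and C4b stays within 0.02 to 0.20.

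The arms were most often apart for these genes on day 2. That day has the fewest libraries, so arms come apart most easily by chance there. In 7 of the 9 (all but C3 and C4b) the EXP and CTRL libraries did not overlap: C1ra, C1s1, C2 and Cfb were higher and Serping1, Cd55 and Cd59a lower in EXP. Over all genes 39.3% did not overlap on day 2, with 3 libraries in each arm. On day 1 only Cd55 was free of overlap, beside 23.9% of all genes, and on day 4 only Cfb, beside 25.5%.

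Over time, changes were called for several of the genes within the EXP arm and for none within CTRL; whether the arms differ in this is the joint test given above, which Cd55 and C2 passed. From day 1 to day 4 of EXP all 9 log2 differences were above 0, with a median of 1.372 beside 0.003 over all genes. In CTRL 8 of the 9 differences over the same days were above 0 as well, with a median of 0.338 beside 0.013 over all genes. In EXP, rises were called for 5, C1ra (0.97 ± 0.29, adjusted p = 0.0216), C1s1 (1.56 ± 0.40, adjusted p = 0.0104), Cfb (1.62 ± 0.41, adjusted p = 0.0109), C2 (1.39 ± 0.39, adjusted p = 0.0167) and Cd55. Of all genes, 12.1% rose in that comparison. Without day 4 EXP replicate 2 Cd55 kept its call and the other 4 lost theirs: C1ra was at 0.27 (adjusted p = 0.528), C1s1 at 0.71 (0.234), Cfb at 0.91 (0.169) and C2 at 0.84 (0.198). C1ra also lost its call without day 1 EXP replicate 4 (adjusted p = 0.0538). With only the EXP libraries C1ra, C1s1 and C2 were not called (adjusted p = 0.0870, 0.0520 and 0.0573). C3 was 2.59-fold higher (1.37 ± 0.57) without passing (adjusted p = 0.0985), and was called without day 1 EXP replicate 2 (1.89, adjusted p = 0.0221). In the joint test over the 3 EXP days Cd55, C1s1, Cfb and C2 were called, beside 14.3% of all genes. That count of 4 was 1 when any of EXP day 1 replicates 3, 4 and 5 or EXP day 4 replicate 2 was left out, and 2 without EXP day 1 replicate 1. In CTRL the joint edgeR test called 0 of 9, with 0 at an unadjusted p under 0.05, beside 0.291% of all genes. DESeq2 also called 0 of 9 there.

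The other complement genes were read from a list of 44, of which 24 passed the low-count filter and 20 were too low to test. On day 1, 2 of the 24 were called, Cd55b and Cd59b, both lower. On day 2, 3 were called, Masp1 higher and Cd55b and Cd59b lower. On day 4, 4 were called, all higher: C1s2, Cfd, Vtn and Colec10. These counts are 8.33%, 12.5% and 16.7% of the 24, beside 28.6%, 13.4% and 22.5% of all genes, so none is above the background. The median log2 fold change of the 24 was -0.198, 0.447 and 0.322 on the 3 days, beside 0.017, 0.021 and 0.031 over all genes.

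Masp1, a protease of the lectin pathway, was at 268, 170 and 284 CPM in day 2 CTRL and at 831, 627 and 724 CPM in day 2 EXP. It rose 3.02-fold (1.59 ± 0.46, adjusted p = 0.0249). Leaving out any of CTRL replicates 1, 2 and 3 or EXP replicates 1 and 3 ended that call (adjusted p of 0.0524 to 0.111). So did dropping the low-count filter or keeping only the low side of the Rnf10 group (adjusted p of up to 0.0819). Its day 4 EXP libraries, at 86.2, 88.6 and 345 CPM, were not called against CTRL at 208 to 316 CPM (-0.68, adjusted p = 0.259), although they were without EXP replicate 3 (-1.65, adjusted p = 0.00297).

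Cfd encodes factor D, which cuts factor B and is made in quantity by adipocytes. Its day 4 EXP libraries were at 1.10, 79.9 and 220 CPM and its day 4 CTRL libraries at 0.532, 0.0858, 0.209 and 0.0865 CPM, a call with a log2 fold change of 8.79 ± 1.84 (adjusted p = 0.00347). On the low side of the Rnf10 group it was 8.37 (adjusted p = 0.0832). The adipocyte genes Adipoq and Plin1 followed the same order in those EXP libraries. Adipoq was at 0, 16.8 and 52.9 CPM, and Plin1 at 0.0536, 2.33 and 5.85 CPM. Their part in the rise of Cfd was not tested.

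Vtn, which encodes vitronectin, an inhibitor of pore assembly, was at 2.27 to 3.42 CPM in day 4 CTRL and at 3.62, 26.9 and 5.92 CPM in day 4 EXP. Its call (2.00, adjusted p = 0.0256) was lost without CTRL replicate 1 (adjusted p = 0.0570), CTRL replicate 3 (0.0543) or EXP replicate 2 (0.497), and without EXP replicate 2 the value was 0.64. It was lost also with no low-count filter (adjusted p = 0.0550), with only the day 4 libraries (0.0805) and on the low side of the Rnf10 group (0.0862). Colec10, a collectin, was at 0.857 to 1.93 CPM in day 4 EXP and at most 0.168 CPM in CTRL (4.30, adjusted p = 0.0291). Its call was lost without CTRL replicate 2 or 4 or EXP replicate 1 or 2 (adjusted p of 0.0652 to 0.0967), and on the low side of the Rnf10 group (0.0930). The same adipocyte, endothelial and lymphocyte markers were higher in those EXP libraries.

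Several steps of the cascade had little or no RNA in these cells. C1qa, C1qb and C1qc, the recognition subunits of C1, never passed 0.484 CPM. Mbl1, C8a and C4bp were at 0 counts in all 22 libraries, and the anaphylatoxin receptors C3ar1 and C5ar1 never passed 10 counts. Of the terminal components, C7 was at 109 to 716 CPM and C6 at 0.783 to 97.7 CPM, and neither was called on any day. On day 2 C6 was at 0.783 to 4.38 CPM in CTRL and 13.3 to 44.7 CPM in EXP, without overlap. That difference was 3.35 ± 1.24 on the log2 scale (edgeR adjusted p = 0.0805). Cr1l, the membrane regulator Crry, was at 57.8 to 109 CPM in all libraries, not called on any day.

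**Figure D4:**
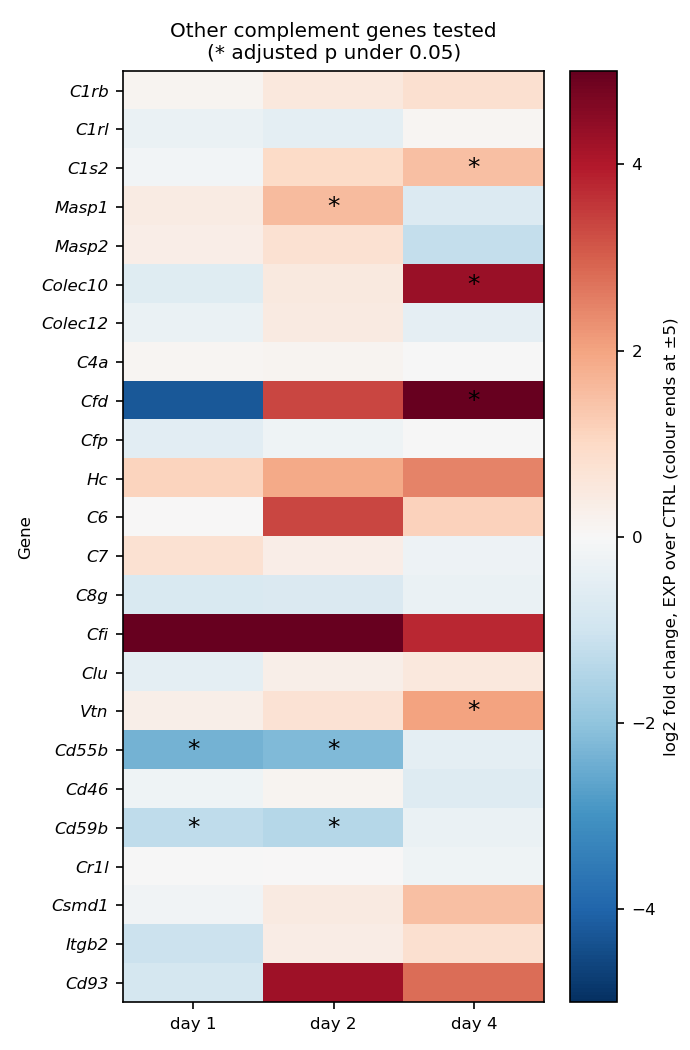
Log2 fold change of EXP over CTRL (colour, ending at ±5) for the 24 other complement genes that were tested (rows) on each day (columns); an asterisk marks an adjusted p under 0.05. Cd55b and Cd59b are lower on days 1 and 2, Masp1 is higher on day 2, and the 4 calls of day 4 are all higher. Some strong colour without an asterisk, as for Cfi, belongs to genes with few counts. C6 on day 2 (3.35) is not such a case, with 372 to 1179 counts in EXP and 15 to 88 in CTRL libraries.

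Genes most like C3 and Serping1 over the 22 libraries were sought among the 7780 tested genes that averaged 10 CPM or more, leaving out the 9. By Pearson's r of log2 CPM those nearest to C3 were C1rb (0.853), C1s2 (0.813), the chemokine gene Cxcl16 (0.804), Cp, which encodes ceruloplasmin (0.759), and Ntrk2 (0.737). Nearest to Serping1 were Anxa5 (0.889), Cpq (0.879), Cst3 (0.877), Sdf4 (0.871) and Fxyd1 (0.867). The sets share no gene. Among the 9 genes themselves C3 with Serping1 had r = 0.342, and 0.612 with group means removed. These are descriptions over libraries that share days, arms and library composition.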

How the data were processed

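RNA of sorted skin fibroblasts was sequenced in 22 libraries of 6 groups of day and arm. The authors deposited a table of raw counts per gene and library, per the file headers and values. Per the labels' protocols, ultra-low-input libraries were read as paired ends on an Illumina platform. Per the submitters' processing notes, Trimmomatic and mm39 were used. The aligner, the counting tool, the annotation and strandedness are not given in the sources used here.

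Counts were analysed as deposited with edgeR 4.0.16 in R 4.3.3: filterByExpr (minimum count 10) kept 17554 of 55414 genes, TMM scaled the libraries, and the quasi-likelihood F-test was fitted to all libraries with 1 mean per group (16 residual degrees of freedom). P-values were Benjamini-Hochberg adjusted over all genes tested and called under 0.05. CPM refer to TMM-scaled totals. Log2 CPM were computed with a prior count of 2, and an SE is that of the log2 fold change. Intervals are 95% intervals from that SE, with a t quantile on the 16 residual degrees of freedom. The test itself adds degrees of freedom shared across genes, so an interval can be wider than its p-value implies. Symbols came from GENCODE M21 (52081 identifiers matched), which also gave exon lengths, chromosomes and overlaps on GRCm38. Gene coordinates are not given, as that is not the files' build. Scripts were tested on simulated data.

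The 9 genes, the other complement genes and the marker lists were chosen with earlier results of these data known. All 9 are named with their values, and of the other complement genes that passed the filter a part is named with values. Results on 1 complement gene outside these lists are not reported here. The genes nearest to C3 and Serping1 are the 5 with the highest r. Alternatives were DESeq2 1.42.0 (test and size factors), library totals, no low-count filter, limma 3.58.1 voom with quality weights, the compared groups alone, a replicate block, the Rnf10 split as a covariate or 1 side of it, each library left out and, added after seeing the data, close copies summed. The precision of a value is set by the spread between libraries more than by counting, at 21461294 to 30210204 counts per library.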

Additional observations from a re-analysis of the deposited data

Results flagged for a closer look

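The effect of the expander differed between days for 4 complement genes, by the joint test over the 3 days (edgeR, adjusted over all genes): Cd55 (adjusted p = 0.0264), C2 (0.0398), Cd55b (0.0279) and Cfd (0.0072). Among all genes 8.82% passed this test. Cd55, C2 and Cd55b were lower in EXP than in CTRL on day 1. Cfd was higher on day 4. The joint call of Cd55b was lost without day 1 CTRL replicate 3 (adjusted p = 0.0561), day 4 CTRL replicates 1 (0.0548) or 4 (0.0613) or day 4 EXP replicate 2 (0.143). That of Cfd was lost without day 1 CTRL replicate 4 (0.0563) and with voom weights (0.234).

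A single library stood far from its group in 2 of the 48 sets of CPM values of a gene in a group of 4 or 5 libraries, where 2.4 would be expected by chance. Cfd was at 7.78 CPM in day 1 CTRL replicate 4 and at 0.179 to 0.381 CPM in the other 3. Vtn was at 7.71 CPM in day 1 EXP replicate 2 and at 1.24 to 2.43 CPM in the other 4.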

How the results depend on the processing

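The 2 falls of Cd55 (days 1 and 2) and the Cfb rise on day 4 were called under every alternative run for them. Counts of the 9 genes called moved as follows. With no low-count filter the count was 1 on day 1 and 1 on day 4, with 0 for the effect that differs between days and 1 for the change over EXP days. Replicate numbers showed no steady pairing of the libraries on days 1 and 2, while on day 4 equal numbers mostly stood higher. CTRL and EXP libraries with equal numbers had correlations of -0.066 to 0.164 in their deviations. These were over 0.1 in 1 of 4, 0 of 3 and 2 of 3 pairs on days 1, 2 and 4. Unequal numbers gave -0.278 to 0.116 on day 1 and -0.033 to 0.042 on day 2. On day 4 equal numbers gave 0.08 to 0.146 and unequal numbers -0.157 to 0.1. A fit with the replicate block called 1 on day 1, 1 on day 2, 1 on day 4, 0 for the effect that differs between days and 1 over EXP days, and its count of other complement genes was 1 on day 4. Under the block C4b on day 4 was at -0.27, and these calls were lost: C2 on day 1 (-1.19, adjusted p = 0.0703), Cfb (1.82, 0.0561) and Cd59b (-1.41, 0.0576) on day 2, and C1s1 (1.07, 0.159), C1s2 (1.19, 0.128), Cfd (7.48, 0.0674), Vtn (1.53, 0.156) and Colec10 (4.01, 0.101) on day 4. On library totals, where the median gene shifted by 0.207, 0.489 and 0.363 on days 1, 2 and 4 and day 2 calls were 4191 higher against 441 lower (1356 against 1003 with TMM), the counts of the 9 were 5 on day 2 and 4 on day 4, and of other complement genes 7 on day 2 (3 with TMM). With voom weights 6 of the 9 were called on day 2, and 6 and 9 other complement genes on days 2 and 4, where voom called 4620 and 3284 of 17554 genes (2359 and 3943 in the fit reported). With only the compared groups 4 of the 9 were called on day 2, 1 on day 4 and 1 over EXP days, and 2 other complement genes on day 4, where 3514 of 15350 genes were called on day 2 and 1128 of 15845 on day 4. Without any low-count filter 1 other complement gene was called on day 2. In the libraries with low levels of the Rnf10 group 1 of the 9 was called on day 4, and 1 other complement gene on day 2 and 1 on day 4. EXP against CTRL was not run on the low side for day 1, which has 1 CTRL library there, and the high side has no EXP library on days 2 and 4. All day 2 libraries are on the low side, so day 2 differences there use the same libraries as the fit reported.

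Leaving out 1 library gave counts of the 9 of 1 to 2 on day 1, 1 to 2 on day 2, 1 to 3 on day 4, 0 to 2 for the effect that differs between days (0 without day 4 CTRL replicate 4 or day 4 EXP replicate 2) and 1 to 6 over EXP days. Counts of other complement genes were 2 to 3 on day 1, 1 to 2 on day 2 and 1 to 7 on day 4 (1 without EXP replicate 2, 7 without EXP replicate 3).

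Signs changed for small or uncalled differences. On day 1 C1s1 was at 0.10 on library totals, 0.07 with the Rnf10 split as a covariate, 0.45 on its high side and -0.37 to 0.11 with 1 library left out. C1s2 was at 0.01, at 0.35 on the high side and at -0.47 to 0.01 with 1 left out. Serping1 was at 0.00 on library totals and 0.11 on the high side, Masp1 at -0.03 on the high side, Vtn at -0.13 with voom and -0.42 to 0.64 with 1 left out, and Colec10 at 0.16 with voom and -1.26 to 1.54 with 1 left out. On day 2 leaving out 1 library gave -0.12 to 1.28 for C3, -0.14 to 4.66 for Cfd and -0.59 to 1.88 for Colec10. On day 4 C4b was at -0.02 on the low side and -0.27 to 0.42 with 1 left out, and Cd59a at 0.08 on library totals and -0.47 to 0.13 with 1 left out. The causes of these shifts were not tested. With 3 libraries in an arm, a difference such as that of C3 on day 4 had an interval of -0.06 to 2.50, so uncalled values do not show equal levels.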

Other observations

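The genes most like Cd55 over the 22 libraries were looked up after its values were seen, in the same way as for C3 and Serping1. They were Naaa (r = 0.948), Antxr2 (0.940), Col5a1 (0.939), Cd34 (0.939) and Fhl1 (0.931). Cd34 is the gene whose protein the sort required. The correlations are over libraries that share days and arms.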
